A study of Mus musculus with 6 samples.

Results

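The Iroquois (Irx) and sine oculis genes are homeobox transcription factors, and 9 of them, *Irx1* to *Irx5* and *Six2* to *Six5*, were followed in clonal MIN6 β cell lines of control and *Snd1* KO genotype. They were chosen as the relatives of *Irx1* and *Six2*, a pair already known to be higher in these *Snd1* KO clones, and are 9 of 53801 mouse genes in the libraries. At least 1 read was found for 8 of the 9 members, and 5 members (*Irx1*, *Six2*, *Six3*, *Six4* and *Six5*) had a mean of at least 0.5 TPM over the clones and were tested. TPM counts reads per length of a gene, scaled to a total of 1000000 in a library. Since *Irx1* and *Six2* were picked for their rise, their values are given as a description and no test is taken from them. The relatives *Irx6* and *Six6* are shown beside the members for comparison.

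MIN6 is a mouse insulinoma line and a common β cell model. All 6 clones came from MIN6 cells that express the nuclease Cas9, were infected with lentivirus carrying a gRNA, were selected with puromycin and were grown from single cells. In the 3 control clones Cas9 was directed to an intron of *Snd1*, and in the 3 *Snd1* KO clones (KO clones below) to *exon 2*. Values of a gene are given for controls 1 to 3 and then for *Snd1* KO 1 to 3. Each clone gave 1 library, so n = 3 counts clones of 1 cell line, and a difference between genotypes cannot be told apart from a difference between the single cells that founded the clones.

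Iroquois proteins belong to the TALE class of homeodomains, whose members carry a short insertion in the DNA-binding domain, and they act mostly as repressors in the patterning of heart, limb, retina and nervous system. Their genes lie in a pair of clusters, with *Irx1*, *Irx2* and *Irx4* in one and *Irx3*, *Irx5* and *Irx6* in the other. In islets, *Irx1* and *Irx2* are known as genes of glucagon-producing α cells. Sine oculis proteins carry a family-specific domain beside the homeodomain and work with EYA coactivators, DACH cofactors and Groucho (TLE) corepressors. *Six2* keeps kidney nephron progenitors undifferentiated and is also known in maturing human β cells together with *Six3*, which otherwise patterns the forebrain and eye. *Six4* acts in muscle and sensory organs, and *Six5* lies next to the myotonic dystrophy gene *Dmpk*.

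The reads on genes numbered between 25865185 and 33055366 per clone. *Snd1* was 113, 119 and 112 TPM in controls 1 to 3, against 14.7, 57.1 and 19.9 TPM in the KO clones in the order 1 to 3, so that *Snd1* KO 2 kept the most *Snd1* RNA of these. The paper describes the KO clones as SND1-deficient by immunoblot, with insertions or deletions that disrupt the protein. Their *Snd1* RNA is therefore no measure of the protein left. Over 11368 genes, which are not independent replicates, Control 3 had Pearson r of 0.949 and 0.955 with *Snd1* KO 2 and 3 but of 0.943 and 0.936 with the other controls. *Snd1* KO 1 had r between 0.922 and 0.938 with the other clones. Values of the tested members are therefore also given without these 2 clones where they moved most. Of 10 β cell markers *Ucn3* was below 0.7 TPM in all clones but *Snd1* KO 1, and the other 9 were at 32.8 TPM or above in every clone, with *Ins2* between 11194 and 18632 TPM and *Pdx1* between 1634 and 2164 TPM. The δ cell factor *Hhex* had 0 reads in all 6 clones.

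The upstream sequences of *Six2* and *Six3* are shown because the means of these neighbouring genes on chromosome 17 differed between the groups in opposite directions. Both are the 250 bases before the RefSeq transcription start (GRCm38.p6), read 5′ to 3′ on the strand of the gene, with capitals for CCAAT and TGACAG in either orientation. TGACAG is a core bound by TALE homeodomain proteins of the MEIS and TGIF families, and CCAAT is a common promoter element.
*Six2*, minus strand, chr17:85688255-85688504: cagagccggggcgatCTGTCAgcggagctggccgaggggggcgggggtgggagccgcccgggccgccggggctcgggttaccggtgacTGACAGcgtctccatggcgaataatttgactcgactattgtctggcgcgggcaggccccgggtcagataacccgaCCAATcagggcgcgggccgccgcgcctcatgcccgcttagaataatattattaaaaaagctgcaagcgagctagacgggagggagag
*Six3*, plus strand, chr17:85620584-85620833: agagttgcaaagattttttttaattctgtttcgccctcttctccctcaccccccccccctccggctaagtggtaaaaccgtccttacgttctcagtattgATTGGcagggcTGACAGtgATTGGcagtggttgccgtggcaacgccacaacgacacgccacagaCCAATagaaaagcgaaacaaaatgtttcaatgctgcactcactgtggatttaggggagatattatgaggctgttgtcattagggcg

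The *Six2* window was rich in CG dinucleotides, with 26 of them and a GC content of 64.8%, whereas that of *Six3* had 10 and a GC content of 48.8%. Over all 32851 windows of this length the median was 6 CG dinucleotides and a GC content of 52.4%. *Six2* held TGACAG on the minus strand at 235 bases and on the plus strand at 162 bases before the start, and CCAAT on the plus strand at 87 bases. *Six3* held TGACAG once, on the plus strand at 139 bases, and CCAAT on the minus strand at 150 and 131 bases and on the plus strand at 86 bases. Searched on both strands, TGACAG occurred in 15.9% and CCAAT in 33.8% of all windows. The sine oculis motif TCAGGTT was found in 1 member window, that of *Six4* at 97 bases on the minus strand, and in 3.49% of all windows. The Iroquois motif ACANNTGT (6.31% of all windows) and the TATA box TATAAA (12.4%) occurred in no member window. Windows were matched for 7 of the 9 members, with 2 for *Six4*, and *Irx1* and *Irx5* had none. The letters of these windows are a description of sequence and no measure of binding.

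*Six2* was the member with the largest rise in TPM. It had 4.88, 6.13 and 3.29 TPM in controls 1 to 3, against 10.6, 28.7 and 20.7 TPM in the KO clones. Every *Snd1* KO clone was above every control clone, and the lowest of the *Snd1* KO clones was clone 1. The group means were 4.77 ± 1.42 TPM and 20.02 ± 9.05 TPM (SD, n = 3 each), a ratio of 4.20. These values rest on 110, 131 and 64 reads in the controls against 216, 561 and 434 reads in the KO clones. On the log2(TPM + 1) scale, which understates the change of genes with low TPM, the difference was 1.79 (standard error 0.37). It stayed between 1.49 and 2.17 with each clone left out in turn and was 1.97 without Control 3 and *Snd1* KO 1. Among the *Snd1* KO clones *Six2* was highest in clone 2, which kept the most *Snd1* RNA, and lowest in clone 1, which kept the least. A link between the level of *Snd1* RNA and that of *Six2* was not tested.

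*Irx1* (ENSMUSG00000060969, chromosome 13 from 71957921 to 71963723 on the minus strand) was almost undetected in control clones. The controls gave 0, 0 and 0.055 TPM (0, 0 and 1 reads), against 0.105, 1.58 and 3.30 TPM in the KO clones (2, 29 and 65 reads). *Snd1* KO 1 was thus under the floor of detection, taken as 3 reads in a clone, while clones 2 and 3 were well above it. Summed over the clones and scaled for depth, the reads gave a ratio of 99.7 with an exact 95% interval of 17.5 to 3978, which covers counting error only. The ratio rests on the single read of Control 3, without which the controls have 0 reads and no ratio can be given. With clones left out in turn, an alternative chosen after seeing the data, it was 49.5 (interval 8.25 to 2018) without *Snd1* KO 3, which held 65 of the 96 reads, 63.2 without Control 1, 65.1 without Control 2 and 148 without *Snd1* KO 1. The difference in log2(TPM + 1) was 1.18 (standard error 0.50) and 1.71 without *Snd1* KO 1. It was 0.73 without *Snd1* KO 3, the clone with the most *Irx1* reads.

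The remaining members of the *Irx1* cluster on chromosome 13 stayed at the edge of detection. *Irx2* (ENSMUSG00000001504, from 72628820 to 72634198 on the plus strand) was not seen in any control (0 reads) and gave 2, 1 and 2 reads in the KO clones, too few in either group for a fold. *Irx4* (ENSMUSG00000021604, from 73260479 to 73269608 on the plus strand), which is known for its expression in the cardiac ventricle, had 4 reads in Control 1 and 1 read in *Snd1* KO 2, with 0 in the other clones. A lincRNA gene 256 bases from *Irx2*, *Gm20554*, had 2, 0 and 0 reads in the controls against 2, 10 and 7 reads in the KO clones. Its higher counts were therefore in the same clones as those of *Irx1*, at a level below the filter.

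The other Iroquois cluster, on chromosome 8, was low or undetected in both groups. *Irx3* (ENSMUSG00000031734, from 91798525 to 91802067 on the minus strand) had 0 reads in all 6 clones, and the floor of 3 reads allows it up to 0.113 TPM in any of them. *Irx5* (ENSMUSG00000031737, from 92357625 to 92376286 on the plus strand) had 9, 4 and 0 reads in the controls against 1, 0 and 4 reads in the KO clones, with groups that overlapped and a read ratio of 0.399 (exact 95% interval 0.111 to 1.19, counting error only). *Irx6* had 1 read in all, in *Snd1* KO 1. *Crnde*, a non-coding RNA gene 1505 bases from *Irx5*, was expressed at 4.22, 3.50 and 4.44 TPM in the controls against 4.30, 6.30 and 5.24 TPM in the KO clones. *Fto*, near *Irx3*, had 25.2, 27.0 and 21.3 TPM in the controls against 22.3, 21.5 and 22.5 TPM in the KO clones. These flanking genes were thus transcribed in clones where *Irx3* was not detected. Over the 5 Irx members together, the reads were 13, 4 and 1 in control clones 1 to 3 and 5, 31 and 71 in the KO clones. *Irx1* gave 29 of the 31 reads in *Snd1* KO 2 and 65 of the 71 reads in *Snd1* KO 3.

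**Figure D1:**
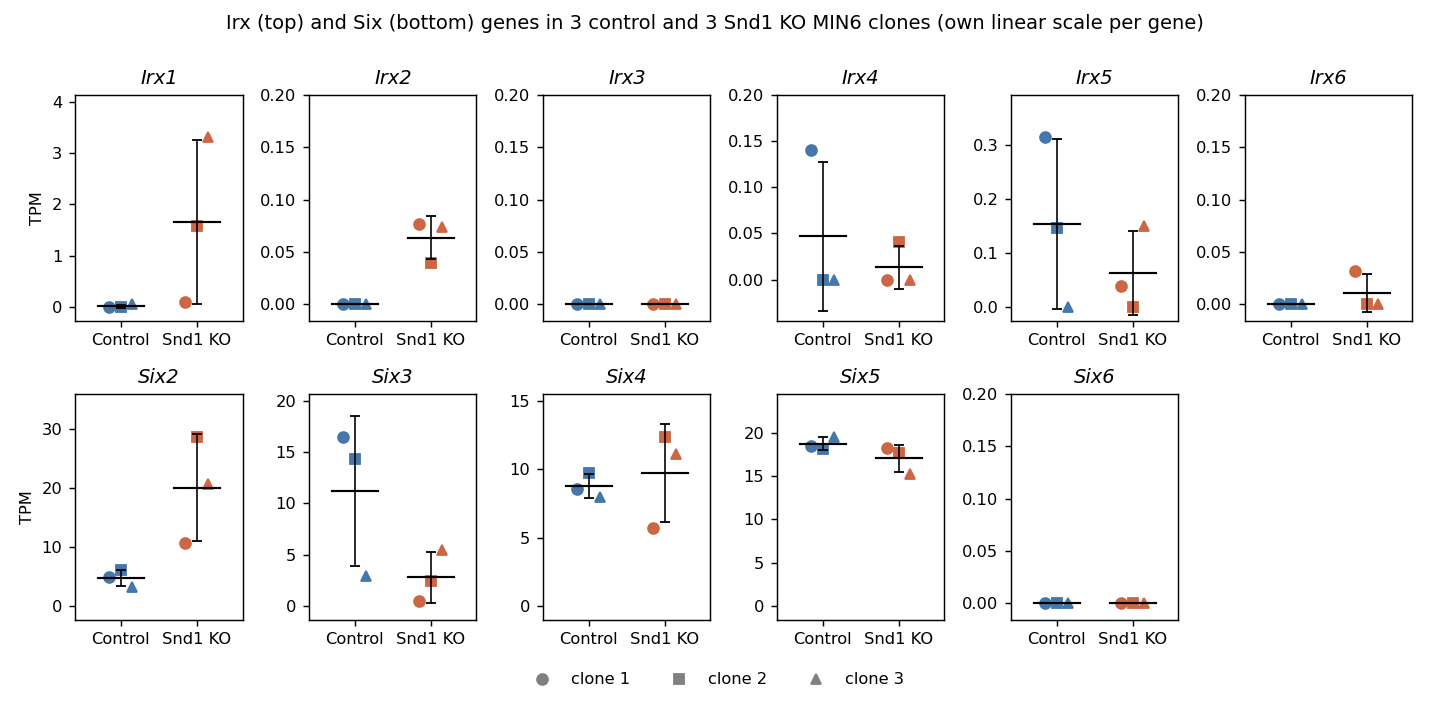
TPM of *Irx1* to *Irx6*, *Six2* to *Six5* and *Six6* (vertical axis, own linear scale per gene) in the 3 control (blue) and 3 *Snd1* KO (orange) clones, with the mean (line) and SD (bar, n = 3). *Six2* is higher in all *Snd1* KO clones, *Irx1* is seen chiefly in *Snd1* KO 2 and 3, *Six3* is lowest in *Snd1* KO 1, and *Irx3* and *Six6* are at 0 in all clones.

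The mean of *Six3* was lower in the KO clones, but its groups overlapped. It had 16.5, 14.3 and 2.89 TPM in controls 1 to 3, against 0.520, 2.43 and 5.48 TPM in the KO clones. Control 3 was lower than *Snd1* KO 3, while Control 1 and Control 2 were above all other clones. The means were 11.2 ± 7.31 TPM and 2.81 ± 2.501 TPM (SD, n = 3 each), so that the *Snd1* KO mean was 25.0% of the control mean. The log2 difference of −1.65 (standard error 0.73, 95% confidence interval −3.39 to 0.09) did not pass the threshold (adjusted p = 0.607, limma; exact two-sided permutation p = 0.2). With 3 clones in each group, 0.1 is the smallest p an exact permutation test can reach. Without Control 3 the difference was −2.34, without *Snd1* KO 1 it was −1.11, and without both it was −1.80.

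*Six2* (ENSMUSG00000024134) and *Six3* (ENSMUSG00000038805) are neighbours on chromosome 17 (GRCm38), the former from 85684277 to 85688274 on the minus strand and the latter from 85613608 to 85629302 on the plus strand. *Six2* made up 22.8%, 29.9% and 53.2% of their summed TPM in controls 1 to 3, against 95.3%, 92.2% and 79.1% in the KO clones. The shares did not overlap between the groups, with Control 3 nearest to the *Snd1* KO clones. The sum itself overlapped, at 21.4, 20.5 and 6.18 TPM in the controls against 11.2, 31.1 and 26.2 TPM in the KO clones. With each exonic base counted once in place of the summed transcript lengths behind the deposited TPM, the log2 ratio of *Six2* to *Six3* was −1.58, −1.05 and 0.36 in control and 4.53, 3.74 and 2.10 in the KO clones. The share uses the rise of *Six2* for which that gene was chosen, and carries no test.

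**Figure D2:**
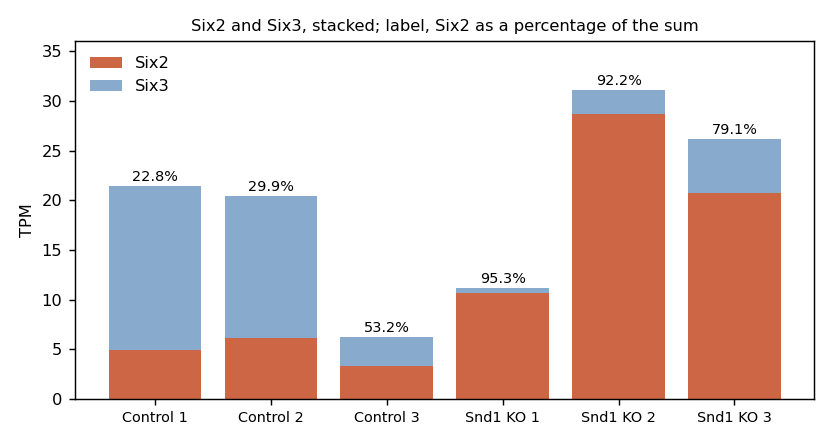
TPM of *Six2* (orange) and *Six3* (blue) stacked for each clone, with *Six2* as a percentage of the sum above each bar. The percentage is 22.8% to 53.2% in control and 79.1% to 95.3% in the KO clones, while the height of the bars overlaps between the groups.

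Transcripts that overlap *Six3* on the opposite strand were, like it, highest in Control 1 and Control 2. *Six3os1*, a long non-coding RNA gene that overlaps the start of *Six3*, had 121, 71 and 24 reads in the controls against 8, 17 and 49 reads in the KO clones. *Gm28528*, an antisense gene, had 17, 17 and 1 reads in the controls against 2, 0 and 8 reads in the KO clones. Ordered by reads, the 6 clones stood in the same order for *Six3os1* as for *Six3*, and *Gm28528* differed from them among the 3 clones with the fewest reads. Whether strand was used in counting is not given in the sources used here, so reads of *Six3* and of these antisense genes cannot be told apart where their exons overlap. The groups of the protein-coding genes on either side overlapped. *Camkmt* had 71.1, 60.1 and 63.2 TPM in the controls against 60.6, 55.5 and 65.4 TPM in the KO clones, and *Srbd1* had 45.9, 42.6 and 42.1 TPM in the controls against 60.4, 45.5 and 47.8 TPM in the KO clones.

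*Six4* (ENSMUSG00000034460, chromosome 12 from 73099609 to 73113456 on the minus strand) did not separate the genotypes. It had 8.56, 9.69 and 7.99 TPM in the controls against 5.69, 12.4 and 11.1 TPM in the KO clones, with *Snd1* KO 1 below and *Snd1* KO 2 and 3 above all control clones. The log2 difference was 0.08 (standard error 0.28, 95% confidence interval −0.58 to 0.74, adjusted p = 0.955, limma; exact two-sided permutation p = 0.9). The value depended on the clones that entered: it was 0.39 (standard error 0.15, adjusted p = 0.340, limma) without *Snd1* KO 1, where the groups no longer overlapped, 0.33 without Control 3 and *Snd1* KO 1, −0.11 without *Snd1* KO 2 and −0.04 without *Snd1* KO 3. *Six6*, a relative on the same chromosome, had 0 reads in all 6 clones. *Mnat1*, 10261 bases from *Six4*, had 12.96, 13.5 and 12.1 TPM in the controls against 12.6, 15.9 and 13.3 TPM in the KO clones, so that the spread of *Six4* among the *Snd1* KO clones was wider than that of this neighbour.

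**Figure D3:**
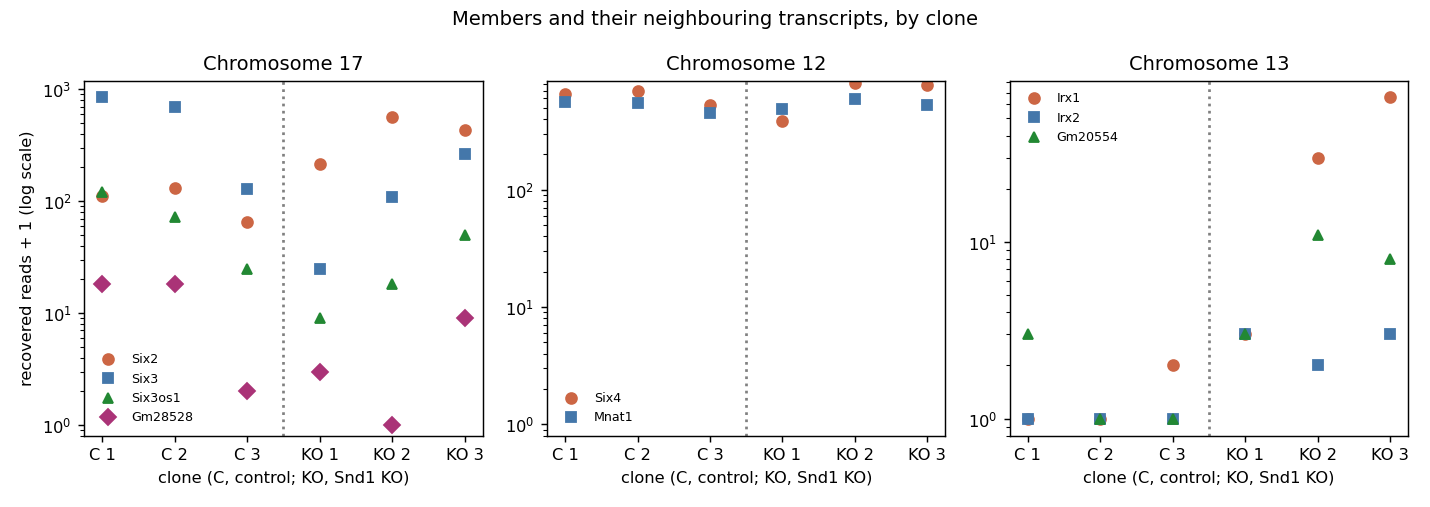
Recovered reads plus 1 (vertical axis, log scale) for members and adjoining transcripts in each clone (C, control, KO, *Snd1* KO) on 3 chromosomes. *Six3*, *Six3os1* and *Gm28528* are highest in Control 1 and 2 while *Six2* is highest in *Snd1* KO 2 and 3, *Six4* is lowest in *Snd1* KO 1, and the *Irx1* and *Gm20554* reads are highest in *Snd1* KO 2 and 3.

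*Six5* (ENSMUSG00000040841, chromosome 7 from 19094594 to 19098549 on the plus strand) had the smallest standard error of the tested members. It had 18.5, 18.2 and 19.6 TPM in the controls against 18.2, 17.7 and 15.3 TPM in the KO clones, or means of 18.7 ± 0.736 and 17.1 ± 1.56 TPM (SD, n = 3 each). *Snd1* KO 1 lay between the control values, and clones 2 and 3 were below them. The difference was −0.13 (standard error 0.12, 95% confidence interval −0.42 to 0.16, adjusted p = 0.782, limma; exact two-sided permutation p = 0.2). Its neighbour *Dmpk*, 773 bases away, was low and overlapped between groups, with 1.18, 0.924 and 1.48 TPM in the controls against 1.98, 1.70 and 0.943 TPM in the KO clones.

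To compare levels between genes, reads per kilobase of exon and per 1000000 reads (RPKM) were computed with each exonic base counted once. In control clones *Six5* (3.16 to 3.74 RPKM) was above *Six4* (1.81 to 2.05 RPKM) in every clone, and *Six3* (0.909 to 4.69 RPKM) overlapped both. *Six4* and *Six2* (1.17 to 1.98 RPKM) overlapped each other. The order was different in the KO clones, where *Six2* was highest (3.47 to 9.78 RPKM) and lay above *Six5* (2.68 to 3.24 RPKM) and *Six4* (1.22 to 2.77 RPKM) without overlap. *Six3* was lowest of *Six2* to *Six5* there by its mean (0.820 RPKM), though its range of 0.150 to 1.58 RPKM overlapped that of *Six4*. *Irx1* reached at most 0.816 RPKM, in *Snd1* KO 3, and in that clone was lower than each of *Six2* to *Six5*.

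Over the 17823 genes tested, 0.00561% were called at an adjusted p under 0.05 and at least 2-fold (limma), which is 1 gene, and 0 of the 5 tested members were called. Voom on the reads recovered from TPM also called 0 of the 5. At an unadjusted p under 0.05 and at least 2-fold, 1 member, *Six2*, passed against 2.24% of all genes, and from this nothing is read as it was chosen for that contrast. The groups did not overlap in 2 of the 5 members, *Six2* and *Irx1*, both higher, against 13.7% of all genes in either direction and 9.69% in the higher direction. Nothing is read from this count, since both were chosen for their rise and *Irx1* passed the filter through the KO clones only and separated by 2 reads in *Snd1* KO 1 against 1 read in Control 3, both under the floor. It also rests on which clones enter. Without *Snd1* KO 1 it was 4 of 5, *Six4* (higher) and *Six5* (lower) being added, with 33.5% of all genes, and without both *Snd1* KO 1 and Control 3 it was 5 of 5, with 61% of all genes. With clone quality weights, which gave the least weight to these 2 clones, 5.02% of all genes passed the threshold, *Irx1* and *Six2* among them, and nothing is read from this, as both were chosen for that contrast. The median log2 difference of the tested members was 0.08, against 0.04 over all genes tested. Nothing is read from this median either, as it includes *Six2* and *Irx1*.

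**Figure D4:**
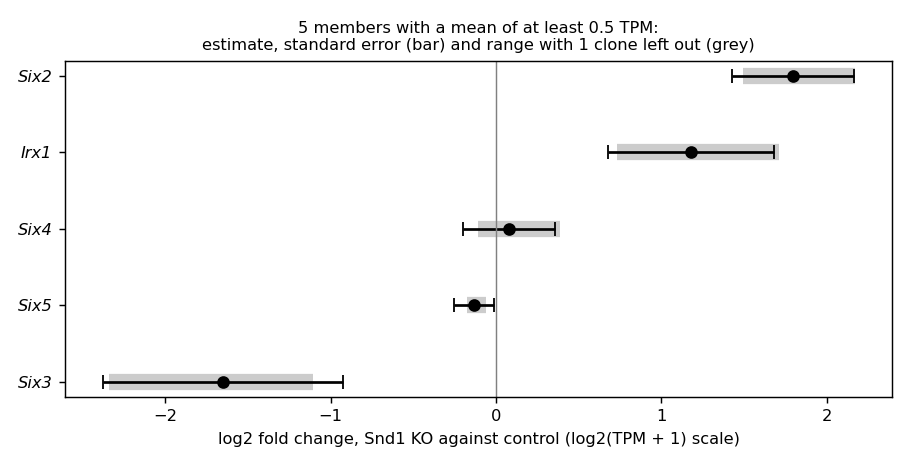
Difference in log2(TPM + 1) between *Snd1* KO and control clones (horizontal axis) for the 5 tested members, with the standard error (bar) and the range when each clone is left out in turn (grey). *Six2* and *Irx1* stay above 0 and *Six3* and *Six5* below 0 in every fit, while *Six4* crosses 0.

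Sine oculis proteins work with partners on transcription, and the groups overlapped for most of the partner genes. Of 16 listed partner and network genes, 13 were tested, 0 were called, and 2 were higher and 1 was lower in all *Snd1* KO clones (23.1%, against 13.7% of all genes), with a median log2 difference of 0.02, which was 0.18 without *Snd1* KO 1. *Pax6*, a paired-homeodomain factor of islet cells, had 75.5, 73.4 and 80.2 TPM in the controls against 84.4, 145 and 107 TPM in the KO clones (log2 difference 0.51, standard error 0.20). *Dach1*, a cofactor of EYA and sine oculis proteins, had 20.6, 19.5 and 14.4 TPM in the controls against 21.2, 24.7 and 25.7 TPM in the KO clones (log2 difference 0.39, standard error 0.17). The corepressor *Tle1* had 7.02, 5.99 and 5.74 TPM in the controls against 5.16, 5.08 and 4.76 TPM in the KO clones (log2 difference −0.27, standard error 0.16). The group separations of *Pax6* and *Dach1* were narrow and none of these genes passed the threshold (adjusted p between 0.607 and 0.668, limma). Among the EYA coactivators, the groups of *Eya3* overlapped, as did those of *Eya1*, at 1.84, 0.834 and 8.07 TPM in the controls against 7.998, 3.34 and 9.66 TPM in the KO clones.

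The TALE homeobox relatives of the Iroquois genes (Meis, Pbx, Pknox, Tgif and *Mkx*, 12 listed, 11 tested) had groups that overlapped for every gene and a median log2 difference of −0.02. Most of the wider homeobox class was below the filter. Of 181 listed genes 179 were measured, 56 had 0 reads in all clones and 49 were tested, of which 5 were higher and 1 was lower without overlap, or 12.2% against 13.7% of all genes. The higher ones were the neural POU factors *Pou3f1* and *Pou3f2*, the islet factors *Isl1* and *Prox1*, and *Zhx1*, and the lower one was *Adnp2*. *Pou3f1* had 0.590, 0.382 and 0.577 TPM in the controls against 2.47, 0.941 and 3.27 TPM in the KO clones (log2 difference 1.02, standard error 0.34, adjusted p = 0.585, limma). *Pou3f2* had 0 reads in the controls against 3.02, 0.036 and 0.067 TPM in the KO clones, so that, unlike *Irx1*, its RNA was nearly all in *Snd1* KO 1. It passed the filter through that clone alone and is among the 5 only by 1 and 2 reads in *Snd1* KO 2 and 3, under the floor. *Isl1* had 284, 273 and 262 TPM in the controls against 287, 372 and 382 TPM in the KO clones (log2 difference 0.33, standard error 0.14, adjusted p = 0.607, limma). Its separation was narrow, and 0 of the 49 tested genes were called.

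**Figure D5:**
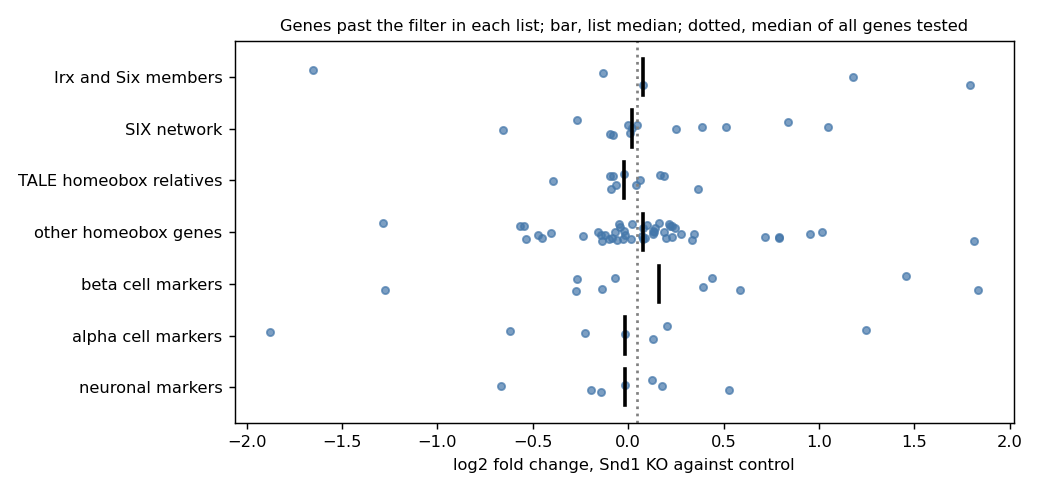
Difference in log2(TPM + 1) between *Snd1* KO and control clones (horizontal axis) for the tested genes (points) of each list, with the list median (bar) and the median of all 17823 genes tested (dotted line, 0.04). The tested members are spread from −1.65 to 1.79 around a median of 0.08, and the TALE relatives lie within −0.40 to 0.36.

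*Irx1* and *Irx2* are α cell genes and *Six2* is a nephron progenitor gene, so the other genes of these cells were set beside them. The α cell hormone gene *Gcg* had 267, 174 and 314 TPM in the controls against 1100, 55.2 and 148 TPM in the KO clones, with its highest value in *Snd1* KO 1, where *Irx1* had 2 reads. Of 10 α cell genes 7 were tested, and 1, *Ttr*, did not overlap (log2 difference −1.88, standard error 0.43, lower in all *Snd1* KO clones), which is 14.3% against 13.7% of all genes. The log2 difference was above 0 for 3 of the 7, with a median of −0.02 that ranged from −0.28 (without *Snd1* KO 1) to 0.19 (without *Snd1* KO 2), and *Gc*, the vitamin D binding protein gene, had 80.9, 66.2 and 326 TPM in the controls against 239, 253 and 395 TPM in the KO clones. The summed α cell list ranged from 16053 to 21685 TPM in control and from 4609 to 10745 TPM in the KO clones, most of it *Ttr*. Of 13 nephron progenitor genes, 4 (*Osr1*, *Hoxa11*, *Hoxd11* and *Gdnf*) had 0 reads in all clones and 3 were tested, with groups that overlapped. The tested ones were *Meox2* (112 to 186 TPM over the clones), *Meox1* (8.12 to 20.5 TPM) and *Cited1* (0.158 to 2.05 TPM). Their log2 difference was above 0 for 1, *Cited1*. The list summed to between 128 and 202 TPM in control and between 128 and 177 TPM in the KO clones. *Wt1* and *Sall1*, factors of the same progenitors, stayed at or below 0.178 TPM in all clones.

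The members were also compared with the markers of the other cell types a β cell line could hold. Acinar markers summed to at most 0.890 TPM in any clone, with *Ptf1a*, *Prss1*, *Cpa1* and *Amy2a5* at 0, PP cell markers to at most 0.196 TPM, with *Pyy* at 0, and mesenchymal markers to at most 6.73 TPM. Duct markers ranged from 2.82 to 74.3 TPM in control and from 46.1 to 88.5 TPM in the KO clones, with *Krt7* the highest of them in every clone, while *Sox9* and *Krt19* stayed below 0.1 TPM. Neuronal markers summed to between 412 and 706 TPM in control and between 479 and 599.7 TPM in the KO clones, and overlapped for all 7 genes tested. Markers of β cells summed to between 47147 and 80889 TPM in control and between 51534 and 88243 TPM in the KO clones, and 2 of 10 were higher in every *Snd1* KO clone, against 9.69% of all genes in that direction. The log2 difference was above 0 for 5 of the 10, with a median of 0.16, which moved to 0.09 when *Snd1* KO 1 and to −0.04 when *Snd1* KO 2 was left out. *Slc30a8*, the zinc transporter of insulin granules, had 215, 191 and 744 TPM in the controls against 809, 1005 and 779 TPM in the KO clones, and *Ucn3* had 41.6 TPM in *Snd1* KO 1 and less than 0.7 TPM in all other clones. *Ucn3* passed the filter through *Snd1* KO 1 alone, and *Snd1* KO 2 and 3 had 5 reads each against 4, 3 and 2 in the controls. Nothing is therefore read from the count of 2 of 10. *Slc2a2*, the glucose transporter of β cells, went the other way, with 160, 65.0 and 172 TPM in the controls against 91.5, 40.5 and 32.8 TPM in the KO clones (log2 difference −1.27), and its groups overlapped. Of 5 δ cell markers 1 was tested, *Rbp4*, with 40.0, 32.7 and 23.9 TPM in the controls against 1.07, 10.1 and 8.29 TPM in the KO clones, and the list summed to between 24.4 and 40.2 TPM in control and between 4.57 and 10.3 TPM in the KO clones. The part of these markers in the values of the members was not tested, and fewer cells of a type cannot be told apart from less RNA per cell in bulk libraries.

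Within 500 kb of a member lie 175 other genes, of which 67 were tested, 4 were higher and 2 were lower without overlap, or 8.96% against 13.7% of all genes, with a median log2 difference of 0.09. The closest of these 6 was *Gm10676*, 101820 bases from *Six5*, with 1.14, 1.37 and 1.255 TPM in the controls against 1.62, 2.12 and 1.75 TPM in the KO clones. *Slc6a3*, the dopamine transporter gene 267139 bases from *Irx4*, had 0.101, 0.160 and 0.117 TPM in the controls against 1.96, 0.291 and 1.14 TPM in the KO clones. It passed the filter through the KO clones only, with 2, 3 and 2 reads in the controls against 35, 5 and 21 in the KO clones. Controls 1 and 3 were under the floor, and nothing is read from its separation. *Tert*, the telomerase gene of the same stretch of chromosome 13, had 3.47, 3.49 and 3.54 TPM in the controls against 4.73, 4.998 and 4.03 TPM in the KO clones (log2 difference 0.31, standard error 0.17). *Slc6a19* near *Irx4* and *Vasp* near *Six5* were lower, and *Gm48653* near *Six4* was higher. None of the tested genes within this distance of *Irx1*, *Irx2*, *Irx3*, *Irx5*, *Six2* or *Six3* separated the groups.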

How the data were processed

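Messenger RNA of 6 MIN6 clones, 3 control and 3 *Snd1* KO by the sample labels, was sequenced as paired ends on a NovaSeq. Reads were processed by the authors with the Genialis platform, and TPM was deposited for each Ensembl gene. Their processing notes list FastQC, Trimmomatic, HISAT2, HTSeq, DESeq2 and the mm10 genome, with no versions, and the strand setting is not given in the sources used here. Of 53900 rows, 99 spike-in controls (at most 1.02 TPM in all) were left out, and 53706 of 53801 genes matched GENCODE M21 (GRCm38). TPM multiplied by the summed exon length of all transcripts gave whole reads, within 0.01, for 93.4% of values above 0 and for every member, from which depth was taken in counted reads. These totals lie above the approximate number of reads per library that the study gives, and whether both mates of a pair were counted is not given in the sources used here, so intervals may be too narrow. Intervals and the floor of 3 reads cover counting error only.

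Genes averaging 0.5 TPM or more over the clones were compared as log2(TPM + 1) with limma 3.58.1 (R 4.3.3, mean-variance trend, Benjamini-Hochberg over 17823 genes) and called at an adjusted p under 0.05 and at least 2-fold. Read intervals were exact binomial, and exact two-sided permutation tests compared single genes. The fit was tested on simulated data. Members and gene lists were chosen with earlier results of these data known, and no list was tested as a set. All members are named, as are up to 6 list genes or neighbours whose groups did not overlap, islet hormones, and up to 5 genes most like each member. Flanking genes, *Eya1*, *Eya3*, *Pdx1*, *Krt7*, *Slc2a2*, *Gc*, *Meox1*, *Meox2*, *Cited1* and markers given at or near 0 were added after their values were seen. Alternatives were other pseudocounts, filters, scalings, no trend, clone quality weights, a replicate block, voom and leaving clones out. Some genes that this rule names are not reported here. Promoter windows came from RefSeq. Python 3.11.15 with numpy 2.4.6, pandas 2.3.3, scipy 1.17.1 and matplotlib 3.10.9 was used.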

Additional observations from a re-analysis of the deposited data

How the results depend on the processing

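Of the 5 tested members, *Six2*, *Irx1*, *Six3* and *Six5* kept their direction under all alternatives run (17 for *Irx1*, which is left out at a mean of at least 5 TPM, and 18 for the others), and *Six4* turned only when a *Snd1* KO clone was left out. *Six4* was −0.11 with *Snd1* KO 2 left out and −0.04 with *Snd1* KO 3 left out. With 1 clone left out, log2 differences ranged from 1.49 to 2.17 for *Six2*, 0.73 to 1.71 for *Irx1*, −2.34 to −1.11 for *Six3*, −0.11 to 0.39 for *Six4* and −0.18 to −0.06 for *Six5*, and 2 to 4 of the 5 members did not overlap, where 18.1% to 35.04% of all genes did not. With clone quality weights 525 genes were called higher and 370 lower, where the reported fit called 0 and 1, and 2 members were called, *Irx1* at 1.88 and *Six2* at 1.77. Without Control 3 and *Snd1* KO 1, an alternative chosen after seeing the data, 68 genes were called higher and 65 lower, 0 members were called and 5 did not overlap, as was the case for 61.0% of all genes. With no filter, no trend or voom on recovered reads 0 genes were called lower, and with 1 clone left out 0 to 1. At a mean of at least 5 TPM 1 member, *Six2*, which was chosen for its rise, did not overlap, against 13.95% of the genes left. Over the alternatives the adjusted p (limma) ranged from 0.066 to 0.983 for *Six3*, 0.199 to 0.993 for *Six4* and 0.134 to 0.983 for *Six5*. The pseudocount set the size for low genes, with *Irx1* at 3.19 and 5.51 and *Six3* at −2.12 and −2.20 for pseudocounts of 0.1 and 0.01. Medians of the lists fitted under the alternatives stayed between −0.28 and 0.21, apart from the neuronal markers, whose lowest was −0.34, and the δ, duct and mesenchymal lists, of which 1 or 2 genes were tested, were not run. No pairing by clone number was seen in the deviations from the group means. These correlated at 0.115, −0.199 and −0.108 for same-numbered clones and between −0.172 and 0.250 for clones of different number. Whether clones of the same number share a batch was not tested. With the clone number as a replicate block 0 genes were called lower and 0 members were called. The cause of these changes was not tested. *Irx1*, *Irx2*, *Irx4* and *Irx5* rest on few reads, and the spread between clones bears on all tested members, *Irx1* included.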

Other observations

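The genes most like each member over the 6 clones were ranked by the Pearson correlation of log2(TPM + 1) among 17822 genes, as a description. These correlations share the clones, their genotype and their library, so high values are common: r was above 0.9 for 412 genes with *Six2*, 474 with *Six3*, 438 with *Six4*, 310 with *Irx1* and 50 with *Six5*. *Six2* was most like *Mbtd1* (r = 0.997), which encodes a histone-reading MBT domain protein and had 5.09, 5.13 and 4.56 TPM in the controls against 6.18, 8.07 and 7.43 TPM in the KO clones. The next were *Nxph4*, *Gm43059*, *Gm49205* and *Tstd1* (r between 0.991 and 0.994). Of these *Gm49205* was under the floor of 3 reads in every control clone (2, 2 and 1 reads), and *Nxph4* was under it in Control 3 (1 read). *Irx1* was most like the small RNA genes *Gm25783*, *Gm25262*, *Gm24041*, *Gm24232* and *Gm27690* (r between 0.997 and 0.998), each with 0 reads in all clones but *Snd1* KO 2 and 3, where *Gm25262* had 2 and 5 reads and the others 1 and 2, so that these correlations rest on counts under the floor of 3 reads in all but 1 value. *Six3* was most like the pseudogene *Gm1943* (r = 0.998) and the neuronal splicing factor gene *Celf3* (r = 0.996), the latter with 45.6, 43.7 and 35.4 TPM in the controls against 29.5, 33.5 and 38.6 TPM in the KO clones. *Gm1943* had 1 to 6 reads in a clone, under the floor in 3 of the 6. *Slc20a2*, *Gm45495* and *Gm26586* followed (r = 0.994 each).

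*Six4* was most like *Inpp5e* and the circadian repressor gene *Bhlhe41* (r = 0.996 each), the latter with 37.6, 43.1 and 34.4 TPM in the controls against 26.4, 56.4 and 48.9 TPM in the KO clones. *Pik3ip1*, *Atp6v1d* and *Mir5125* came next (r between 0.993 and 0.996). *Six5* was most like *Nop9* (r = 0.989) and *Pdcd5* (r = 0.981), followed by *Bccip*, *1810012K08Rik* and *Mrpl55* (r between 0.966 and 0.974), of which *1810012K08Rik* had 0 to 3 reads in a clone. *Bhlhe41*, like *Six4*, had its lowest value in *Snd1* KO 1.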
